A study of Arabidopsis thaliana with 36 samples.

Results

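The abscisic acid receptors, the clade A protein phosphatases 2C (PP2Cs) and the synthesis gene NCED3 were followed through shoots and roots of Arabidopsis thaliana. The genes were chosen by identifier and made up 10 of the 32833 genes in the count table: the receptor genes PYL4 (AT2G38310) and PYL6 (AT2G40330), the phosphatase genes ABI1 (AT4G26080), ABI2 (AT5G57050), HAB1 (AT1G72770), PP2CA (AT3G11410), HAI1 (AT5G59220), HAI2 (AT1G07430) and HAI3 (AT2G29380), and NCED3 (AT3G14440). The gene table listed HAI1 as SAG113 and HAI2 as AIP1. The study asked how phytosulfokine (PSK), a small peptide hormone that is active only when its tyrosines are sulfated, changes transcript levels in seedlings. It used tpst, a T-DNA insertion mutant in the Col-0 background that lacks tyrosylprotein sulfotransferase and with it every tyrosine-sulfated peptide, so that tpst against Col-0 is not a comparison of PSK alone. Seedlings were raised in liquid medium under long days to an age of 11 days, their shoots and roots were separated, and RNA from pooled seedlings was sequenced in 36 libraries, 3 independent biological replicates for each of 6 conditions in each tissue. The conditions were untreated tpst, tpst exposed to PSK at 10 nM over 30 min, 2 h or 5 h, tpst germinated in the same dose and kept in it for 11 days, and untreated Col-0.

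The 3 short treatments began with a change to fresh medium, whereas untreated tpst and Col-0 had none, so that the peptide and the fresh medium cannot be told apart in those groups. Every comparison of PSK-treated with untreated tpst, and that of tpst with Col-0, shares the same 3 untreated tpst libraries of a tissue, and their values are given side by side only. In whole shoots or roots, fewer cells of a type and less RNA per cell cannot be told apart.

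Abscisic acid (ABA) is the plant hormone best known from drought, stomatal closure and seed dormancy. Its soluble receptors of the PYR/PYL family bind the hormone and then hold clade A PP2Cs in an inactive complex, which frees SnRK2 kinases such as OST1 to phosphorylate ABF transcription factors and guard cell ion channels. The phosphatases thus brake the pathway, and many of their genes are themselves induced by ABA through factors that bind the ABRE element, whose core is ACGTG. NCED3 cleaves an epoxycarotenoid in the plastid, the step that limits ABA synthesis under stress, and CYP707A enzymes break ABA down.

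The 300 bases before the annotated start are shown for 6 of the genes. HAB1, HAI1, HAI3 and NCED3 passed the test in comparisons of PSK or genotype, and PP2CA and HAI2 held the most copies of the ABRE core. For HAI3, near the limit of detection in untreated shoots, the p-values are descriptions only. Sequences come from the RefSeq assembly TAIR10.1, in which all 10 genes have the coordinates of the count table. They run 5′ to 3′ in the direction of the gene, with ACGTG on either strand in capitals.
HAB1 (chr1:27389648-27389947, plus strand): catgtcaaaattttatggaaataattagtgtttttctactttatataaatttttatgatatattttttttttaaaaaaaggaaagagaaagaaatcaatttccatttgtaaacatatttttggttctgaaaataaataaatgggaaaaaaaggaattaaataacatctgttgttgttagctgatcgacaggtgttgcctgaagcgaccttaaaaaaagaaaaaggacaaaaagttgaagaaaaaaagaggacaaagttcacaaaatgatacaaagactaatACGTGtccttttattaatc
HAI1 (chr5:23896940-23897239, minus strand): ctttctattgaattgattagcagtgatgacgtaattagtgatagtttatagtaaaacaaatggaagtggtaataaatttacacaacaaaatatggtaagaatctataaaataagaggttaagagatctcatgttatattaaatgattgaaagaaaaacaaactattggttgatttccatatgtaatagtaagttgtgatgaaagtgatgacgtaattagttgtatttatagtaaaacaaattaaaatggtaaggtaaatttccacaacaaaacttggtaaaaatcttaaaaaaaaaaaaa
HAI2 (chr1:2282829-2283128, minus strand): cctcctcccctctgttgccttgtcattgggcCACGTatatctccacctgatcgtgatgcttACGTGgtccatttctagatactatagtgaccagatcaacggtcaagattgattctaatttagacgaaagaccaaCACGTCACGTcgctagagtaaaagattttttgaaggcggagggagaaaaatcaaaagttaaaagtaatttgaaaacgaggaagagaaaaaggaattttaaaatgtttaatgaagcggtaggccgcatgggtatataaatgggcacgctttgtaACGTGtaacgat
HAI3 (chr2:12608375-12608674, plus strand): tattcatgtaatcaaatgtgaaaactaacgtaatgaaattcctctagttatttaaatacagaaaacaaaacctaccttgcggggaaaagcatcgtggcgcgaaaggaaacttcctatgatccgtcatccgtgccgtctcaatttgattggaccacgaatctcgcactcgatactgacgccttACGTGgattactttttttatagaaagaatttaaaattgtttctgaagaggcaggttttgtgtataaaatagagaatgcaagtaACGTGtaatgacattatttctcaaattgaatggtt
PP2CA (chr3:3585851-3586150, minus strand): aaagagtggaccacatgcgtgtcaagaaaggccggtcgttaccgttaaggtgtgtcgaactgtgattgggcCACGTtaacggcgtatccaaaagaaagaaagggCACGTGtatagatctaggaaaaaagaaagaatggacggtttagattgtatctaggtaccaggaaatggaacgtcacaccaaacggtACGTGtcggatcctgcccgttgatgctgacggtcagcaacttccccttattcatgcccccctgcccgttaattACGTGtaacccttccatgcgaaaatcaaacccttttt
NCED3 (chr3:4834016-4834315, minus strand): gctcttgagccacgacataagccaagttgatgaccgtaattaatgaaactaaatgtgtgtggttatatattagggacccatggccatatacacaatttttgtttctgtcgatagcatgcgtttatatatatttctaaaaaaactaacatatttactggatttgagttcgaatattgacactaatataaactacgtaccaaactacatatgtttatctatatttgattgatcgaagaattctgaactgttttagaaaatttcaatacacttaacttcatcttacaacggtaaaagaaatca
Matches on both strands were counted, so that CACGTG counts once on each. ACGTG was found 5 times before PP2CA and 5 times before HAI2, 2 times before HAI3, and 1 time each before HAB1, where it lay 19 bases from the start, and ABI1. The windows of HAI1, ABI2, NCED3, PYL4 and PYL6 held no match. Of 27412 windows of protein-coding genes, 25.6% held ACGTG. The evening element AAAATATCT, known from clock-controlled genes, was present before ABI2 alone of the 10 and in 2.79% of all windows. Of the W-box forms that WRKY factors bind, TTGACC was held by 14% of all windows, TTGACT by 22% and TTGACA by 20.7%, and at least 1 of the 3 forms by 45.9%. At least 1 form was found before 8 of the 10 genes.

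In TAIR10 the genes lie at chr2:16049918-16051356 (PYL4, plus strand), chr2:16844588-16846194 (PYL6, minus strand), chr4:13219915-13222376 (ABI1, minus strand), chr5:23087122-23089631 (ABI2, plus strand), chr1:27389948-27393327 (HAB1, plus strand), chr3:3583782-3585850 (PP2CA, minus strand), chr5:23894404-23896939 (HAI1, minus strand), chr1:2280746-2282828 (HAI2, minus strand), chr2:12608675-12610350 (HAI3, plus strand) and chr3:4831286-4834015 (NCED3, minus strand). Only ABI1 overlapped another gene, MKK1, over 22 bases at its 3′ end, where reads cannot be assigned by strand because the kit does not mark it. Every 50-base stretch of the exons of the 10 genes occurred once in the genome.

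The libraries held 21559655 to 36921510 counted reads. Levels of a gene are given as counts-per-million (CPM) values, which are compared within a gene only. TPST averaged 5.55 ± 0.63 CPM in untreated tpst shoots and 15.9 ± 1.46 CPM in Col-0 shoots, and 14.3 ± 1.31 CPM in untreated tpst roots and 28.5 ± 0.83 CPM in Col-0 roots (SD, n = 3 each). A list of 8 leaf genes summed to 101 to 1054 CPM in roots. The highest sum was that of replicate 3 of untreated tpst roots, and the next was 298 CPM. A list of 8 root genes summed to 16.7 to 58.8 CPM in shoots, against 525 to 846 CPM in roots. A gene was called where its fold change was at least 2 and its Benjamini-Hochberg adjusted p from the edgeR quasi-likelihood test, over all genes of the fit, was under 0.05. Only called genes are said to rise or fall, and every error given with a fold change is the SE of the fit on the log2 scale.

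PYL4 was the most abundant gene of the set in both tissues. Levels that can be compared between genes are the deposited FPKM values, which are scaled to transcript length. In untreated tpst shoots PYL4 averaged 78.7 ± 5.3 FPKM, ABI1 30.1 ± 5.5, PYL6 21.1 ± 4.5, PP2CA 10.6 ± 1.5 and HAB1 10.6 ± 1 FPKM (SD, n = 3). ABI2 followed at 2.65 ± 0.37, NCED3 at 0.895 ± 0.25 and HAI1 at 0.514 ± 0.044 FPKM. PP2CA and HAB1 did not differ beyond their spread. HAI2 and HAI3 came last, with 0 to 9 reads in each of these libraries. In untreated tpst roots PYL4 averaged 49.7 ± 5.6 FPKM, ABI1 26.7 ± 4.7, PP2CA 23.3 ± 1.3, PYL6 19.1 ± 2.9 and HAB1 11.1 ± 0.4 FPKM. There ABI1 and PP2CA lay within their spread, as did NCED3 (0.681 ± 0.19) and HAI1 (0.659 ± 0.27 FPKM). Col-0 roots differed from this order in NCED3, which averaged 10.2 ± 3.9 FPKM, next to HAB1 at 11.5 ± 1.1 FPKM.

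**Figure D1:**
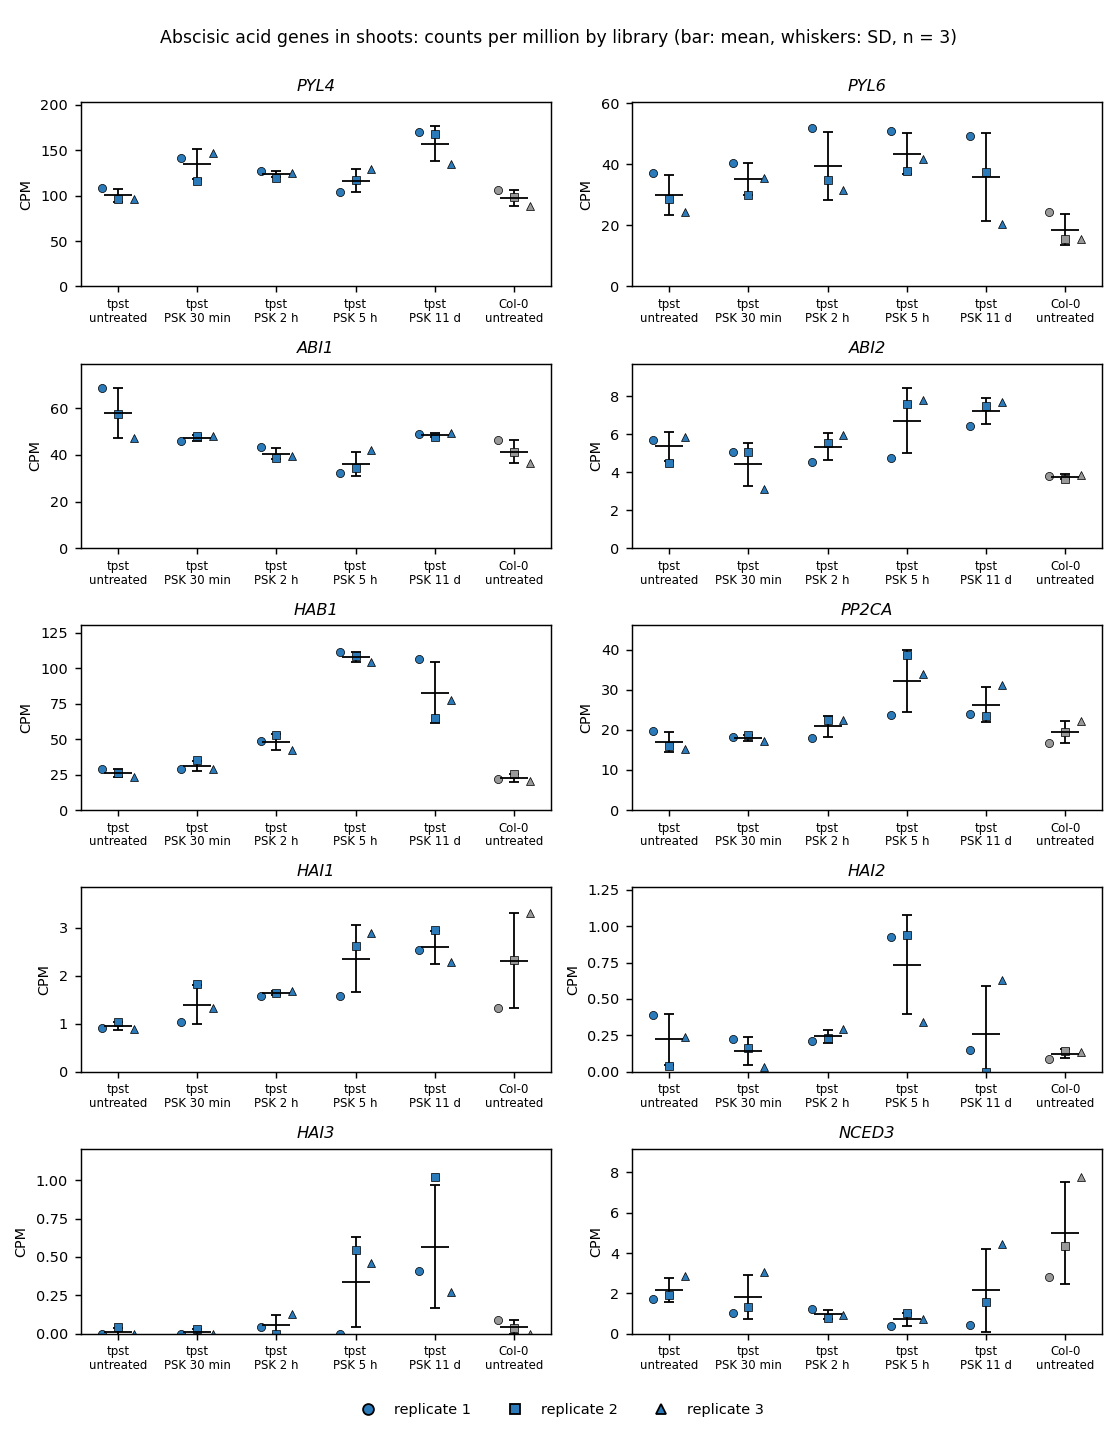
CPM (y axis, linear, from 0) of the 10 genes in the 18 shoot libraries by group (x axis), with points for single libraries (shape gives the replicate number), a bar for the mean and whiskers for the SD (n = 3). HAB1 stood at 104 to 112 CPM after 5 h of PSK, against 23.6 to 28.9 CPM in untreated tpst.

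In shoots none of the 10 genes was called by edgeR after 30 min or 2 h of PSK, where 0.663% and 4.29% of the 20811 genes tested were called. At an unadjusted p under 0.05, 2 and 4 of the 10 passed at those times, and DESeq2 called 0 at each. The share of all genes at an unadjusted p under 0.05 is not given, here or later, so that all such counts are descriptions. After 5 h, 4 of 10 were called (HAB1, HAI1 and HAI3 higher, NCED3 lower), beside 17% of all genes tested. After 11 days, 3 of 10 were called (HAB1, HAI1 and HAI3, all higher), beside 14.7%. The median log2 fold change of the 10 genes was 0.30 after 2 h, 0.73 after 5 h and 0.53 after 11 days, and that of all genes tested was -0.01 at 5 h and -0.01 at 11 days. HAI2 and HAI3 passed the filter on low counts in shoots only through groups where they were high, so that counts and medians over the set are descriptions.

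In roots HAI2 did not pass the filter. Of the other 9 genes none was called by edgeR at 30 min, 2 h or 11 days, where 0.478%, 1.41% and 2% of 21358 genes were called. Unadjusted p was under 0.05 for 2, 1 and 2 of the 9, and DESeq2 called 0 at each time. After 5 h in roots HAI1 alone was called, beside 2.49% of all genes.

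Untreated tpst against Col-0 gave 1 called gene of 10 in shoots (HAI1, lower), beside 5.7% of all genes, and 1 of 9 in roots (NCED3, lower), beside 6.78%. After 11 days in PSK, tpst shoots had 2 genes called against Col-0 (HAB1 and HAI3, higher), beside 19.8%, and tpst roots had 1 (NCED3, lower), beside 7.95%. Between successive times, HAB1 alone was called in shoots at 5 h against 2 h, beside 6.49% of genes. No gene of the set was called by edgeR in shoots at 2 h against 30 min, in roots at 2 h against 30 min or in roots at 5 h against 2 h, where 1.06%, 0.014% and 0.239% of all genes were. In these 3 steps unadjusted p was under 0.05 for 1, 1 and 3 genes, and DESeq2 called 0, 0 and 1.

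**Figure D2:**
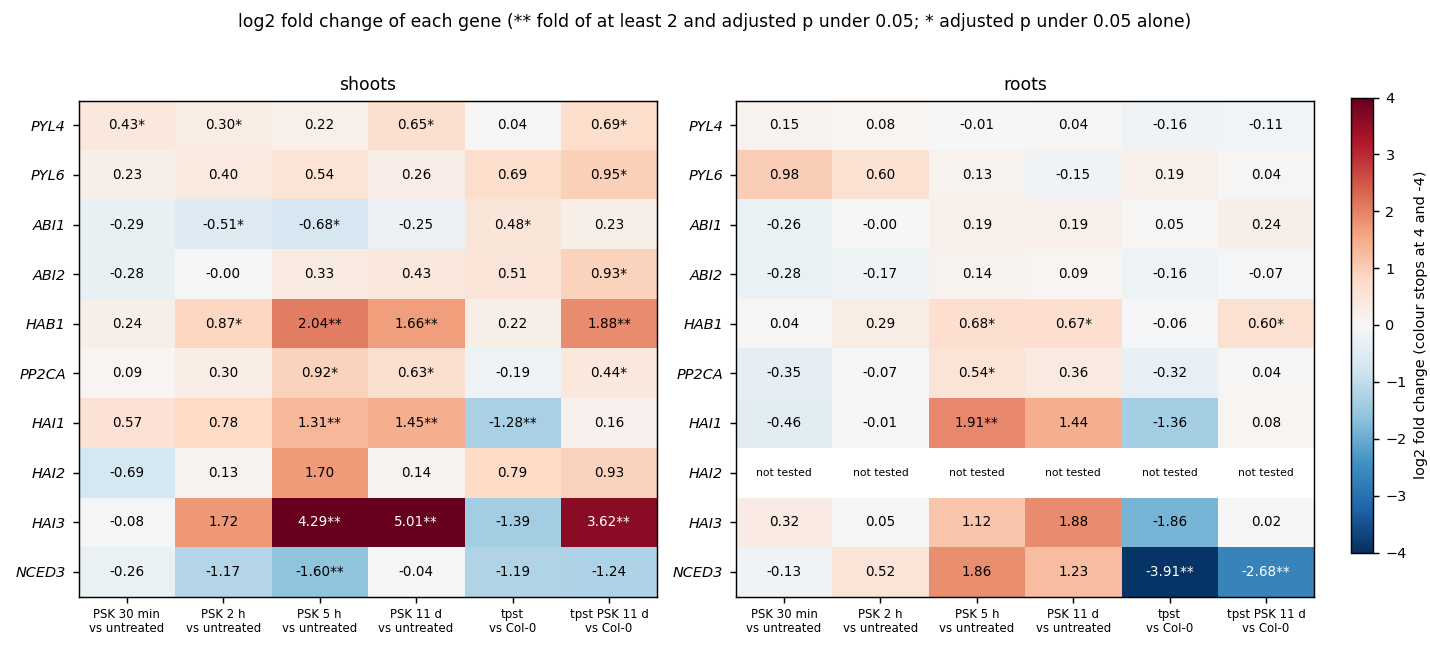
Heat map of the log2 fold changes of the 10 genes (rows) in 6 comparisons (columns), in shoots and roots, each of the first-named group against the second. A double asterisk marks a fold of at least 2 with an adjusted p under 0.05, and a single one an adjusted p under 0.05 alone. HAB1 stood at 2.04 in shoots at 5 h, and NCED3 at -3.91 in tpst roots against Col-0.

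PYL4, one of the monomeric ABA receptors, changed by less than a fold of 2 in every comparison. In shoots it stood at 169.7, 168 and 135 CPM after 11 days in PSK, against 108, 96.1 and 96.5 CPM in untreated tpst. All 3 treated shoots lay above all 3 untreated ones, with a log2 fold change of 0.65 ± 0.11 (adjusted p = 8.72e-05 by edgeR, as for every adjusted p here). The value was 0.43 ± 0.11, adjusted p = 0.0338 at 30 min and 0.30 ± 0.11, adjusted p = 0.0462 at 2 h. At 5 h it did not pass (0.22 ± 0.11, adjusted p = 0.0971). In roots PYL4 had log2 fold changes between -0.01 and 0.15 at the 4 times, none past the threshold. The difference in response at 11 days, roots minus shoots, was -0.62 ± 0.19 (adjusted p = 0.0208).

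PYL6, a receptor gene close to PYL4 in sequence, was called nowhere. In roots it had 81.5, 71.7 and 56.1 CPM after 30 min of PSK, against 40.6, 35.6 and 29.8 CPM in untreated tpst. The groups did not overlap, but the log2 fold change of 0.98 ± 0.33 had an adjusted p of 0.181. At 5 h the root libraries spread over 62, 36.3 and 18 CPM, above and below the untreated range. In shoots, tpst after 11 days in PSK had 49.2, 37.6 and 20.5 CPM, against 24.5, 15.7 and 15.5 CPM in Col-0. These groups overlapped, and the log2 fold change was 0.95 ± 0.27 (adjusted p = 0.00647). It passed the fold without Col-0 replicate 1 (1.23, adjusted p = 0.00279) or replicate 3 of the treated tpst shoots (1.26, adjusted p = 0.000337). These were the highest Col-0 and the lowest treated library, and on leaving out any other the value stayed under the fold.

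HAB1, a phosphatase that acts on OST1, rose in shoots. It had 28.9, 26.3 and 23.6 CPM in untreated tpst, 28.8, 35.2 and 29.1 CPM after 30 min of PSK and 49, 53.2 and 42 CPM after 2 h. After 5 h it had 112, 108 and 104 CPM, and after 11 days 106, 64.7 and 77.5 CPM. From 2 h on every treated library lay above every untreated one. The log2 fold change was 2.04 ± 0.15 at 5 h (adjusted p = 9.25e-09) and 1.66 ± 0.15 at 11 days (adjusted p = 1.17e-07). The value at 2 h, 0.87 ± 0.15, passed the p threshold but not the fold (adjusted p = 0.000378). The step from 2 h to 5 h was itself called, at 1.17 ± 0.15 (adjusted p = 1.64e-05). For HAB1 no difference between untreated tpst and Col-0 shoots was detected (0.22 ± 0.15, adjusted p = 0.327). After 11 days in PSK, tpst shoots exceeded Col-0 (21.9, 25.5 and 20.2 CPM) by 1.88 ± 0.15 (adjusted p = 1.75e-08). These 4 calls were each kept on leaving out any 1 library of the comparison.

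In roots HAB1 had 48.3, 62.9 and 60.2 CPM after 5 h and 52.5, 54 and 63.1 CPM after 11 days of PSK, against 34.3, 35.9 and 36.8 CPM in untreated tpst. The groups did not overlap, and the log2 fold changes of 0.68 ± 0.12 (adjusted p = 0.00182) and 0.67 ± 0.12 (adjusted p = 0.00251) stayed under a fold of 2. Without replicate 3 of untreated tpst roots, the library with the most leaf transcripts, they were 0.71, adjusted p = 0.00653 at 5 h and 0.69, adjusted p = 0.00911 at 11 days. The response of roots minus that of shoots was -1.39 ± 0.20 at 5 h (adjusted p = 1.26e-05) and -1.01 ± 0.20 at 11 days (adjusted p = 0.000656). The difference at 11 days lay at the fold threshold and no longer met it without untreated tpst shoots replicate 3, tpst PSK 11 days shoots replicate 1, untreated tpst roots replicate 3, tpst PSK 11 days roots replicate 1 or tpst PSK 11 days roots replicate 2, with values of -0.98 to -0.79. The highest adjusted p on leaving out 1 library was 0.00349.

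HAI1, of the highly ABA-induced PP2C group, fell in untreated tpst shoots relative to Col-0 and rose in tpst shoots after 5 h and 11 days of PSK. It had 0.903, 1.04 and 0.9 CPM in untreated tpst shoots, against 1.32, 2.32 and 3.3 CPM in Col-0. All tpst libraries lay below all Col-0 ones, with a log2 fold change of -1.28 ± 0.32 (adjusted p = 0.00704). Without replicate 3 of Col-0 shoots the call was lost (-0.92, adjusted p = 0.0557). With PSK, HAI1 had 1.57, 2.62 and 2.88 CPM at 5 h and 2.52, 2.96 and 2.29 CPM at 11 days, above all untreated tpst shoots. It rose by 1.31 ± 0.32 (adjusted p = 0.00203) and 1.45 ± 0.32 (adjusted p = 0.00106), and both calls were kept on leaving out any 1 library. After 11 days in PSK, tpst shoots differed from Col-0 by 0.16 ± 0.29, adjusted p = 0.655.

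In roots HAI1 had 2.09, 2.17 and 13.6 CPM after 5 h of PSK, against 2.03, 0.833 and 1.87 CPM in untreated tpst. Replicate 3 of the treated roots stood far above the other 5 libraries. The log2 fold change of 1.91 ± 0.62 passed (adjusted p = 0.0406), but without that library it was 0.42, adjusted p = 0.504. The HAI1 call was also lost without replicate 1 (2.14, adjusted p = 0.0668), replicate 2 (1.61, adjusted p = 0.14) or replicate 3 (2.07, adjusted p = 0.0794) of untreated tpst roots, and where the fit held only the 6 libraries compared (1.92, adjusted p = 0.19). HAI1 in untreated tpst roots lay below all 3 Col-0 roots (3.66, 3.63 and 4.87 CPM), and that difference did not pass (-1.36 ± 0.62, adjusted p = 0.13), except where the fit held only those 6 libraries (-1.35, adjusted p = 0.0134).

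HAI3, of the same group, was near the limit of detection in shoots without PSK. It had 0, 14 and 12 reads after 5 h and 11, 28 and 6 reads after 11 days of PSK, against 0, 1 and 0 in untreated tpst and 2, 1 and 0 in Col-0. All 3 libraries of 11 days lay above all 6 without PSK, whereas replicate 1 of 5 h had no read. Summed over libraries and scaled to their size, the ratio to untreated tpst was 27.3 at 5 h (exact 95% interval 4.49 to 1120) and 45.2 at 11 days (7.71 to 1826). The ratio to Col-0 at 11 days was 14 (4.48 to 70.2). These intervals cover counting error only. HAI3 passed the filter on low counts in shoots only through groups where it was high, so that its p-values are descriptions and its counts carry the comparison. After adjustment they were 0.0108 at 5 h, 0.00259 at 11 days and 0.00693 at 11 days against Col-0. With no filter the 3 comparisons also lay past both thresholds, and those p-values are descriptions as well. In roots HAI3 had 8, 7 and 21 reads after 11 days, against 5, 1 and 2 in untreated tpst, and passed in no comparison of PSK or genotype. HAI2 had 20, 24 and 9 reads in shoots after 5 h, against 9, 1 and 7 in untreated tpst, with a log2 fold change of 1.70 ± 0.76 (adjusted p = 0.0674), and at most 14 reads in a root library. The 5 h value passed without replicate 3 of the treated shoots (2.05, adjusted p = 0.0405), which was the lowest of them. HAI2 too passed the filter in shoots only through groups where it was high, so that its p-values are descriptions as well.

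PP2CA, which acts on SnRK2 kinases and guard cell channels, had 23.6, 38.7 and 34 CPM in shoots after 5 h of PSK, against 19.7, 15.9 and 15.3 CPM in untreated tpst. The groups did not overlap, and the log2 fold change of 0.92 ± 0.17 (adjusted p = 0.000154) stayed under a fold of 2, as did that at 11 days (0.63 ± 0.17, adjusted p = 0.00445). The value at 5 h passed the fold on leaving out replicate 1 of the treated shoots (1.10, adjusted p = 1.21e-05) or of untreated tpst (1.04, adjusted p = 0.000199). These were the lowest treated and the highest untreated library, and on leaving out any other the value stayed under the fold. In roots PP2CA had 49.8, 78.9 and 82.6 CPM at 5 h, against 48, 45.9 and 51.1 CPM in untreated tpst. Here the groups overlapped (0.54 ± 0.18, adjusted p = 0.0496). Without replicate 3 of untreated tpst roots the value was 0.59, adjusted p = 0.0834.

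ABI1, named for the ABA insensitivity of its dominant mutant, had lower values in shoots after 2 h and 5 h of PSK. It stood at 32.1, 34.5 and 42 CPM after 5 h, against 68.8, 57.5 and 47.4 CPM in untreated tpst. All treated libraries lay below all untreated ones, with a log2 fold change of -0.68 ± 0.12 (adjusted p = 0.000149) and of -0.51 ± 0.12, adjusted p = 0.00461 at 2 h. At 30 min (-0.29 ± 0.12, adjusted p = 0.198) and 11 days (-0.25 ± 0.12, adjusted p = 0.0936) ABI1 did not pass, and the groups overlapped. Untreated tpst shoots differed from Col-0 (46.4, 41.4 and 36.4 CPM) by 0.48 ± 0.12, adjusted p = 0.00721. In roots ABI1 at 5 h had 0.19 ± 0.12, adjusted p = 0.275, and the difference in response, roots minus shoots, was 0.84 ± 0.17, adjusted p = 0.000638. ABI2, a close paralogue of ABI1, passed the p threshold in 1 comparison of PSK or genotype, tpst shoots after 11 days in PSK against Col-0. The PSK-treated tpst shoots had 6.42, 7.48 and 7.71 CPM, and Col-0 had 3.82, 3.63 and 3.85 CPM (0.93 ± 0.21, adjusted p = 0.000997). Without replicate 1 of the treated shoots, the lowest of them, the value was 1.04, adjusted p = 0.00118.

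**Figure D3:**
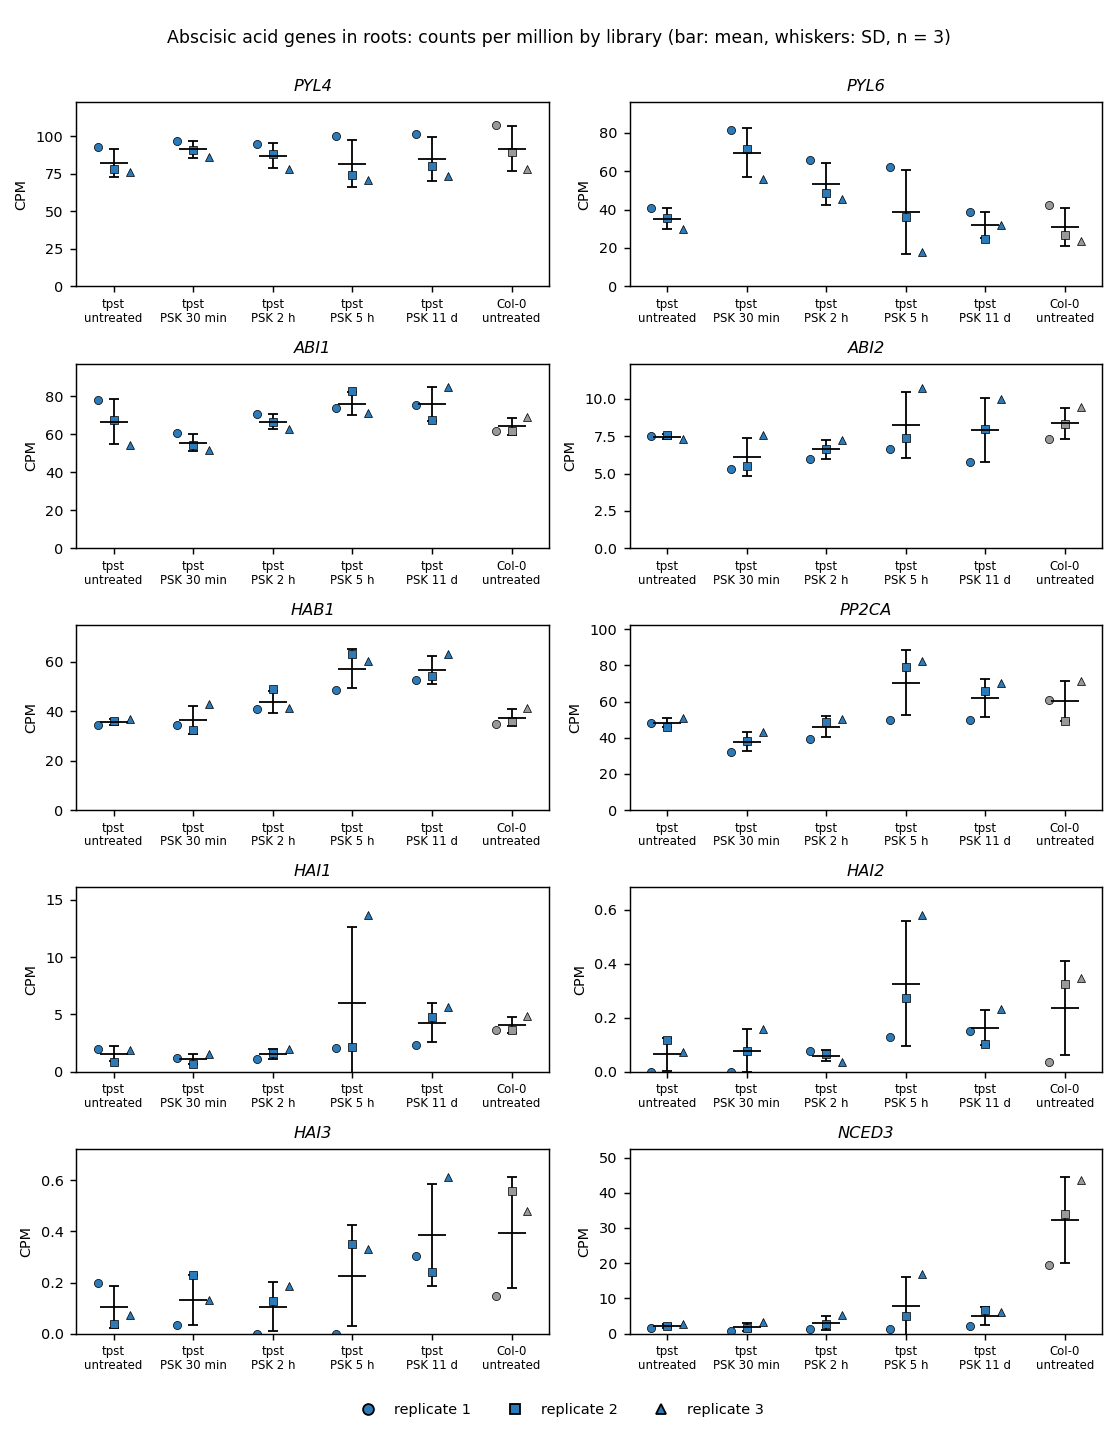
CPM (y axis, linear, from 0) of the 10 genes in the 18 root libraries, with points, bars and whiskers as for shoots (mean and SD, n = 3). NCED3 stood at 17 CPM or less in every tpst library and at 19.5 to 43.7 CPM in Col-0, and HAI1 at 5 h was high in replicate 3 alone.

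NCED3, the synthesis gene, fell in tpst roots. Untreated tpst roots had 1.47, 2.3 and 2.65 CPM (37, 58 and 72 reads), against 19.5, 33.8 and 43.7 CPM in Col-0 (527, 727 and 1006 reads). The groups were far apart, with a log2 fold change of -3.91 ± 0.75 (adjusted p = 0.00171). The call was kept on leaving out any 1 library, with values of -4.18 to -3.64. Of the 8 leaf genes, 6 were called higher in tpst roots than in Col-0 roots, and the list summed to 101 to 1054 CPM in untreated tpst and 106 to 116 CPM in Col-0. Without replicate 3 of untreated tpst, the library rich in leaf transcripts, NCED3 stood at -4.09, adjusted p = 0.00741. In shoots it had 1.72, 1.93 and 2.84 CPM in untreated tpst, against 2.82, 4.35 and 7.79 CPM in Col-0. The highest tpst shoot lay just above the lowest Col-0 shoot, and the difference did not pass (-1.19 ± 0.56, adjusted p = 0.135). It did pass where the fit held only the 6 libraries compared (-1.17, adjusted p = 0.044) or had the replicate number as a block (-1.13, adjusted p = 0.0491). The effect of tpst in roots minus that in shoots was -2.68 ± 0.97, adjusted p = 0.0538 by edgeR, and it passed by DESeq2 (-2.71, adjusted p = 0.0441), and without Col-0 roots replicate 1 (-2.95, adjusted p = 0.0475) or Col-0 shoots replicate 3 (-3.15, adjusted p = 0.0379). With the replicate number as a block it also passed (-2.74, adjusted p = 0.00194). Col-0 roots replicate 1 was the lowest Col-0 root, and Col-0 shoots replicate 3 the highest Col-0 shoot. On leaving out any other library the difference between tissues did not pass. Without replicate 3 of untreated tpst roots it was -2.88, adjusted p = 0.0736.

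With PSK, root NCED3 had 0.87, 1.69 and 3.18 CPM after 30 min, 1.38, 2.67 and 5.18 CPM after 2 h and 1.28, 5.04 and 17 CPM after 5 h. After 11 days it had 2.1, 6.79 and 6.17 CPM. The 5 h libraries spread widely, and neither 5 h (1.86 ± 0.73, adjusted p = 0.0882) nor 11 days (1.23 ± 0.74, adjusted p = 0.275) passed against untreated tpst. At 5 h NCED3 was called on leaving out replicate 1 of the 5 h roots, the lowest of them (2.35, adjusted p = 0.0243), and on leaving out no other library. It was also called at 5 h with the replicate number as a block in the fit (1.53, adjusted p = 0.0145). After 11 days in PSK every tpst root lay below every Col-0 root, with a log2 fold change of -2.68 ± 0.69 (adjusted p = 0.00912) that was called on leaving out any 1 library.

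In shoots NCED3 had 0.369, 1.02 and 0.729 CPM after 5 h of PSK (8, 26 and 19 reads), against 1.72, 1.93 and 2.84 CPM in untreated tpst. All treated libraries lay below all untreated ones. It fell with a log2 fold change of -1.60 ± 0.65 (adjusted p = 0.0444), a call near the threshold that was kept only on leaving out replicate 2 of the 5 h shoots and lost on leaving out any other of the 6 libraries (adjusted p = 0.0511 to 0.138). At 11 days the shoots spread over 0.445, 1.57 and 4.44 CPM, below and above the untreated range. The response at 5 h, roots minus shoots, was 3.44 ± 1.08, adjusted p = 0.0205. For NCED3 this call was lost without replicate 3 of 5 h roots (2.14, adjusted p = 0.141), replicate 1 of 5 h shoots (3.16, adjusted p = 0.0543) or replicate 3 of untreated tpst shoots (3.18, adjusted p = 0.0512).

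**Figure D4:**
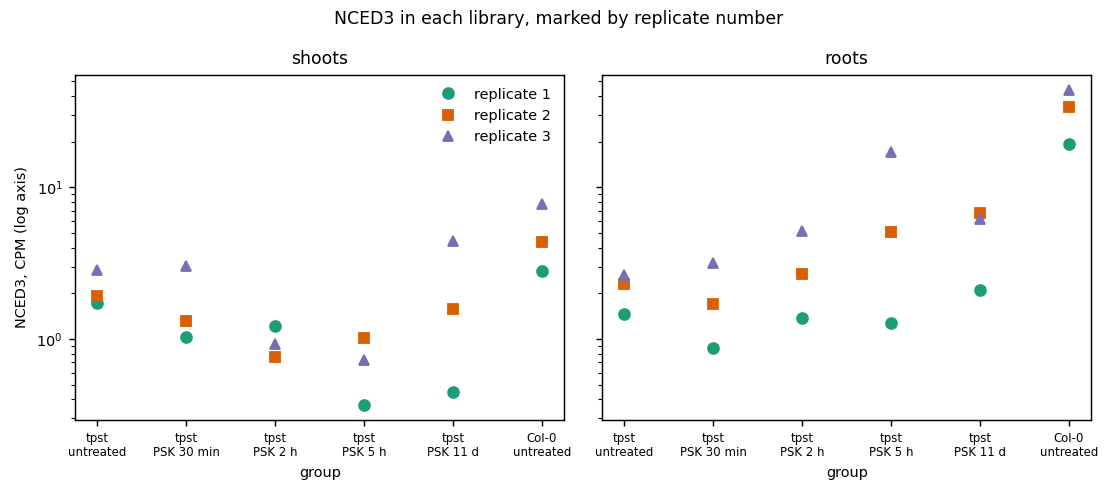
CPM of NCED3 in each library (y axis, log scale) by group (x axis), with colour and shape for the replicate number, in shoots and roots. In roots replicate 1 was the lowest in 6 of 6 groups and replicate 3 the highest in 5 of 6, and Col-0 roots lay above all tpst roots.

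The difference in response between tissues was tested for all 10 genes in a joint fit. At 30 min and 2 h none was called by edgeR, beside 0.00448% and 1.26% of 22303 genes, with 0 and 2 of the 10 at an unadjusted p under 0.05 and 0 by DESeq2 at both. At 5 h, 2 of 10 were called (HAB1 lower and NCED3 higher, roots minus shoots), beside 7.52%, and at 11 days 1 (HAB1, lower), beside 6.51%. For the effect of tpst none was called by edgeR, beside 6.77%, with 3 at an unadjusted p under 0.05 and 1, NCED3, by DESeq2. Between Col-0 roots and Col-0 shoots, 3 of 10 were called, all higher in roots, beside 41.3% of all genes. They were PP2CA (1.22 ± 0.19, adjusted p = 1.31e-06), NCED3 (2.28 ± 0.65, adjusted p = 0.00275) and HAI3 (2.67 ± 1.17, adjusted p = 0.0434). HAI3 had 4, 12 and 11 reads in Col-0 roots and 2, 1 and 0 in Col-0 shoots, and its call was lost without Col-0 shoots replicate 2, Col-0 shoots replicate 3, Col-0 roots replicate 2 or Col-0 roots replicate 3, with adjusted p up to 0.127, and with no filter on low counts (adjusted p = 0.0556).

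Of 58 other genes of the ABA pathway, 44 could be tested in each tissue. The lists were chosen with earlier results of these data known, so that their shares are descriptions. In shoots with PSK, 1 was called at 30 min (2.27% of those tested, beside 0.663% of all genes), 5 at 2 h (11.4%, beside 4.29%), 13 at 5 h (29.5%, beside 17%) and 9 at 11 days (20.5%, beside 14.7%). In roots 0 were called by edgeR at 30 min, where 0.478% of all genes were, with 1 by DESeq2 and 11 of the 44 at p under 0.05 before adjustment. Later 2 were called at 2 h (4.55%, beside 1.41%), 4 at 5 h (9.09%, beside 2.49%) and 5 at 11 days (11.4%, beside 2%), with 6 by DESeq2 at 2 h. In shoots 9 were higher and 4 lower at 5 h, and 7 higher and 2 lower at 11 days. In roots all 4 and all 5 were higher at those times. In untreated tpst against Col-0, 4 were higher and 1 lower in shoots (11.4%, beside 5.7%), and 1 higher and 4 lower in roots (11.4%, beside 6.78%).

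OST1, a SnRK2 kinase gene whose product the phosphatases inactivate, rose in both tissues. In shoots OST1 had log2 fold changes of 1.25 ± 0.17 at 2 h, 2.50 ± 0.18 at 5 h (adjusted p = 4.89e-09) and 1.88 ± 0.17 at 11 days. In roots they were 1.24 ± 0.30, adjusted p = 0.0299 at 2 h, 1.43 ± 0.30, adjusted p = 0.00444 at 5 h and 1.45 ± 0.30, adjusted p = 0.00531 at 11 days. AHG1, a clade A phosphatase known from seeds, had 3.27, 1.02 and 0.806 CPM in shoots after 5 h and 2.93, 0.986 and 1.26 CPM after 11 days, against 0.129, 0 and 0 CPM in untreated tpst, and was called at both times. Its untreated shoot libraries lay at or near 0 CPM, so that these shoot calls are descriptions, as for HAI3. The pathway counts in shoots at 5 h and 11 days include AHG1. In roots AHG1 had 2.77, 2.13 and 1.95 CPM after 5 h and 5.37, 1.59 and 2.02 CPM after 11 days, against 0.794, 0.317 and 0.478 CPM in untreated tpst, and rose at both times (adjusted p = 0.0114 and 0.00533). Of 7 other receptor genes tested in shoots, PYL8 alone rose at 5 h (1.16 ± 0.18, adjusted p = 3.65e-05), and in roots PYL7 was lower in untreated tpst than in Col-0 (-1.33 ± 0.45, adjusted p = 0.0427).

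Among transcription factors, ABF3, which binds ABRE elements, rose in shoots at 5 h (1.15 ± 0.13) and 11 days (1.19 ± 0.13) and in roots at 11 days (1.07 ± 0.12, adjusted p = 6.08e-05). Of the AFP genes, whose products restrain the factor ABI5, AFP4 (1.25 ± 0.16) and AFP2 (1.02 ± 0.21) rose in shoots at 5 h. AFP1 (1.01 ± 0.27) rose in roots at 5 h, and AFP2 rose at 11 days in shoots (1.38 ± 0.21) and roots (1.01 ± 0.17). AFP3 was called higher in untreated tpst than in Col-0 shoots. In synthesis, ABA1, the zeaxanthin epoxidase gene upstream of NCED3, rose by 1.00 ± 0.08 at 2 h, 1.39 ± 0.08 at 5 h and 1.31 ± 0.08 at 11 days in shoots, and by 1.15 ± 0.10 at 5 h and 1.24 ± 0.10 at 11 days in roots. In breakdown and conjugation, CYP707A3 fell in shoots at 2 h (-1.29 ± 0.40) and 5 h (-2.20 ± 0.42), and CYP707A4 at 2 h (-1.77 ± 0.50). BGLU18, a glucosidase that frees ABA from its glucose ester, fell in roots at 2 h (-2.08 ± 0.54) and in shoots at 5 h (-1.29 ± 0.28) and 11 days (-1.79 ± 0.29), and was higher in untreated tpst than in Col-0 shoots (1.18 ± 0.28).

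Genes known to respond to ABA were called in both directions. RD20, a drought-induced caleosin gene, rose in shoots at 30 min (1.27 ± 0.28, adjusted p = 0.0181), 2 h (2.24 ± 0.28), 5 h (3.95 ± 0.28) and 11 days (3.52 ± 0.28). HB12 also rose in shoots at 11 days, whereas RD29A fell there at 5 h (-1.28 ± 0.32, adjusted p = 0.00238). In untreated tpst against Col-0, RD29A was lower (-1.59 ± 0.34, adjusted p = 0.00394) and RD22 higher (2.05 ± 0.37, adjusted p = 0.00108) in roots, and RAB18 was higher in shoots (1.82 ± 0.42, adjusted p = 0.00411). The ABA importer gene ABCG40 was higher in untreated tpst than in Col-0 shoots (2.51 ± 0.38, adjusted p = 0.000139). With PSK, ABCG40 was called in opposite directions in shoots, higher at 5 h (1.09 ± 0.33, adjusted p = 0.0105) and lower at 11 days (-1.07 ± 0.35, adjusted p = 0.0155). The exporter gene DTX50 was lower in tpst in shoots (-1.19 ± 0.41, adjusted p = 0.0439) and roots (-1.82 ± 0.53, adjusted p = 0.021).

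**Figure D5:**
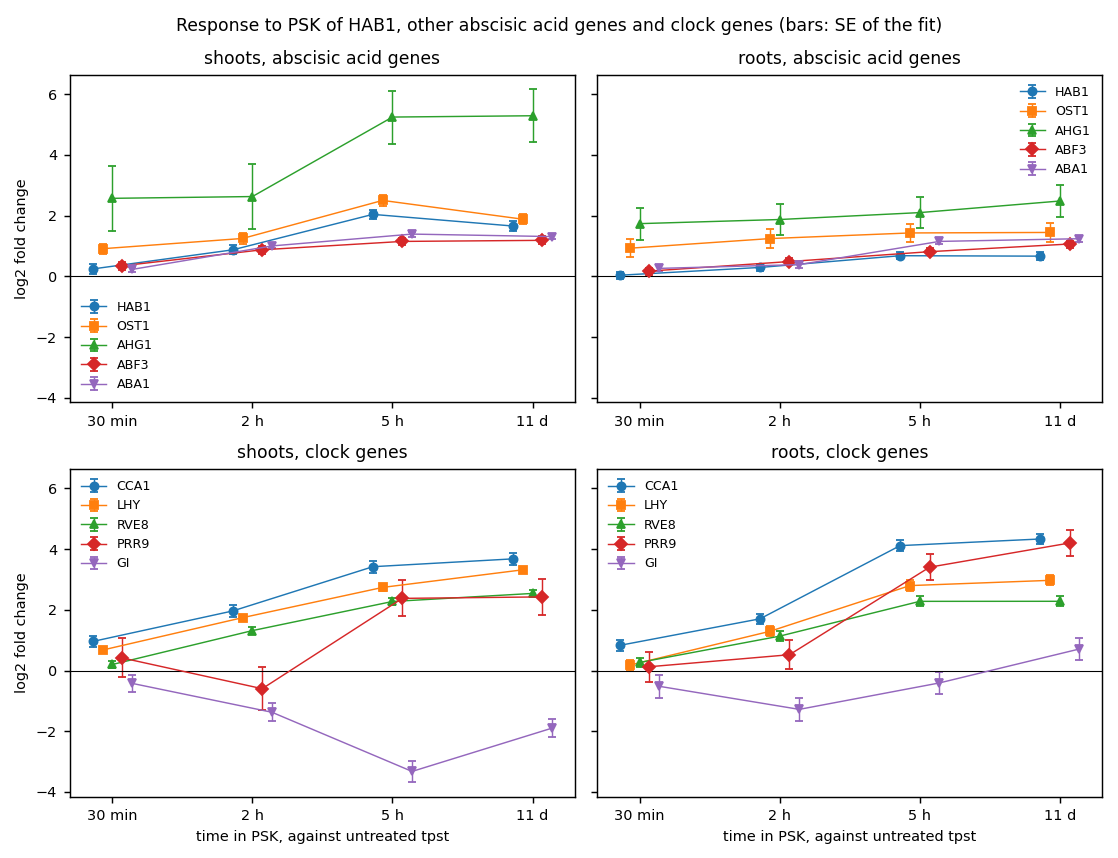
Log2 fold change against untreated tpst (y axis) by time in PSK (x axis, 4 times in order, not to scale) for HAB1, OST1, AHG1, ABF3 and ABA1 and for 5 clock genes, in shoots and roots, with bars for the SE of the fit. In shoots at 5 h HAB1 (2.04), OST1 (2.50) and the clock gene CCA1 (3.42) were all above their values at 30 min. AHG1 was near the limit of detection in untreated tpst shoots.

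Clock genes moved in the same comparisons, and in shoots they went in both directions. Of the 7 clock genes tested there, 3 were called higher and 2 (GI and PRR7) lower after 2 h of PSK. The longer exposures each gave 4 higher and 2 lower in shoots. In roots none of the 7 was called lower with PSK. The dawn genes CCA1, LHY and RVE8 rose in both tissues at 2 h, 5 h and 11 days of PSK, CCA1 by 1.96 ± 0.19, 3.42 ± 0.20 and 3.68 ± 0.20 in shoots and by 1.70 ± 0.17, 4.12 ± 0.18 and 4.33 ± 0.18 in roots. In untreated tpst against Col-0, LHY was higher in shoots (1.96 ± 0.11, adjusted p = 3.89e-09), and no difference in LHY was detected in roots (0.26 ± 0.17, adjusted p = 0.278). The hour of collection is not given in the sources used here, and the part of time of day in the values of HAB1, HAI1, HAI3, NCED3, OST1 and the other genes was not tested. The 4 guard cell markers FAMA, MYB60, KAT1 and SLAC1 summed to 48.1 to 55.5 CPM in shoots at 5 h and 63.8 to 79.7 CPM at 11 days of PSK, against 48.6 to 57.6 CPM in untreated tpst. None of the 4 was called at either time by edgeR. The 8 root genes summed to 38.3 to 47 CPM in shoots at 5 h and 27.7 to 40.4 CPM at 11 days, against 49.7 to 58.8 CPM in untreated tpst and 16.7 to 31.7 CPM in Col-0, and their part in the shoot results was not tested.

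Over all 36 libraries, after the mean of each tissue was subtracted, the genes whose log2 CPM went most closely with HAB1 were MRP6 (Pearson's r = 0.97), RCD1 (0.96) and TPL (0.95), out of 22302 genes. For NCED3 they were AT4G18070 (Pearson's r = 0.92), ERD10 (0.90) and AT2G23120 (0.90), and for HAI1 they were CKL2 (Pearson's r = 0.80), PP2CA (0.75) and AT5G64850 (0.75). The 36 points share groups, times of treatment and libraries, and these values are descriptions.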

How the data were processed

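RNA-seq of shoots and roots gave 36 libraries in 12 groups of 3. Per the labels and the study's methods, the authors cleaned reads with fastp (version not given), aligned them to TAIR10 with HISAT2 2.0.5 and counted reads per gene with featureCounts 1.5.0-p3. The deposited values were raw counts per gene and FPKM values, which the authors scaled to gene length and library size. The kit does not mark strand, so that any error in assigning reads to overlapping genes passes into the counts.

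Counts were tested with edgeR 4.0.16 (R 4.3.3; quasi-likelihood F-test, TMM, filterByExpr with a minimum count of 10), with the 18 libraries of a tissue in one fit and all 36 in a joint fit for differences between tissues. Levels in CPM used TMM library sizes. The SE was the log2 fold change divided by the root of F. P-values were adjusted over all genes of a fit. Each library's total, from 21559655 to 36921510 reads, sets the counting precision. Alternatives were DESeq2 1.42.0, RLE size factors, no filter, a minimum count of 50, no fold minimum, a fit of only the 6 libraries compared, a replicate block, and leaving out each library. The scripts' tests were checked on simulated counts. Upstream windows were read from the RefSeq genome. All 10 genes are named in every comparison, and of each other list at most the 2 called genes with the smallest adjusted p. The genes, lists and tests were chosen with earlier results of these data known.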

Additional observations from a re-analysis of the deposited data

Results flagged for a closer look

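A total of 5 responses differed between roots and shoots by an adjusted p under 0.05 for the difference itself in the joint edgeR fit, given as roots minus shoots on the log2 scale. HAB1 differed by -1.39 ± 0.20, adjusted p = 1.26e-05 at 5 h and -1.01 ± 0.20, adjusted p = 0.000656 at 11 days of PSK, NCED3 by 3.44 ± 1.08, adjusted p = 0.0205 at 5 h, ABI1 by 0.84 ± 0.17, adjusted p = 0.000638 at 5 h and PYL4 by -0.62 ± 0.19, adjusted p = 0.0208 at 11 days. The values for ABI1 and PYL4 are under a fold of 2. The clock gene GI also differed, by 2.90 ± 0.54 at 5 h and 2.59 ± 0.51 at 11 days, and the part of time of day in the differences was not tested.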

How the results depend on the processing

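No value that was called, with all libraries or under an alternative, changed direction. Of 2988 values of single genes under the alternatives, 113 changed sign, all of them uncalled on both sides. The counts in the rest of this paragraph are descriptions, since the share of all genes under the same setting is not given beside them. Without a fold minimum, the number of the 10 genes called was 1 in shoots at 30 min, 3 at 2 h, 6 at 5 h, 5 at 11 days, 2 in tpst against Col-0, 6 after 11 days against Col-0, 1 at 2 h against 30 min and 2 at 5 h against 2 h. In roots it was 3 at 5 h, 1 at 11 days and 2 after 11 days against Col-0, for roots minus shoots 3 at 5 h and 2 at 11 days, and for Col-0 roots against shoots 5. With only the 6 libraries compared in the fit, it was 1 in shoots at 2 h, 2 in tpst against Col-0 shoots, 1 in shoots after 11 days against Col-0, 0 in roots at 5 h and 2 in tpst against Col-0 roots. The filter at a minimum count of 50 gave 1 in shoots after 11 days against Col-0, since HAI3 did not pass it. DESeq2 gave 1 in roots at 5 h against 2 h and 1 for the effect of tpst, roots minus shoots. On leaving out 1 library in turn, the number called ran over 3 to 4 in shoots at 5 h, where NCED3 was lost in 5 of 6 fits and PP2CA or HAI2 gained in 3, 0 to 1 in tpst against Col-0 shoots, 2 to 4 in shoots after 11 days against Col-0, 1 to 2 in shoots at 5 h against 2 h and 0 to 2 in roots at 5 h, and for roots minus shoots over 1 to 2 at 5 h, 0 to 1 at 11 days and 0 to 1 for tpst. The cause of these shifts was not tested unless given.

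Whether the replicate numbers pair the samples is not given, and the correlation of deviations between libraries cannot decide it. The methods describe seedlings with shoot and root separated, but not how the numbers were given. In no comparison was the correlation over 0.1 for every same-numbered pair. In roots at 30 min and 5 h, in tpst against Col-0 roots and between roots and shoots of 4 of the 6 conditions, each of the 3 numbers correlated best with itself. This is a hint from the data and not the design. A replicate block gave 2 called genes in tpst against Col-0 shoots, 2 in roots at 5 h and 1 for the effect of tpst, roots minus shoots, the added gene being NCED3 in each (-1.13, adjusted p = 0.0491 in shoots, 1.53, adjusted p = 0.0145 in roots at 5 h and -2.74, adjusted p = 0.00194 for roots minus shoots). The block also called NCED3 in shoots after 11 days in PSK against Col-0 (-1.36, adjusted p = 0.00881). A replicate block of shoot and root pairs gave 0 for roots minus shoots at 11 days and 1 for tpst (NCED3, -2.72, adjusted p = 0.00349). Over all genes, the counts called moved most in small comparisons: in roots at 30 min 102 by edgeR, 200 by DESeq2 and 181 with the block, at 2 h 301 by edgeR and 452 by DESeq2, and with only 6 libraries 269 in place of 532 at 5 h and 248 in place of 428 at 11 days. In roots at 2 h against 30 min they were 3 by edgeR, 35 by DESeq2, 51 with 6 libraries and 16 with the block, at 5 h against 2 h 51, 108 by DESeq2 and 0 with 6 libraries, and for roots minus shoots at 30 min 1 by edgeR and 67 by DESeq2. Of the values of single genes under the alternatives, 2918 kept their side of the threshold, 45 passed it and 25 lost it. Depth limits HAI2 and HAI3, which had few reads in most groups.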

Other observations

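Some genes of the set followed the replicate number. PYL6 was highest in replicate 1 in 6 of 6 shoot groups and 6 of 6 root groups. In roots PYL4 was highest in replicate 1 in 6 of 6 groups and lowest in replicate 3 in 6 of 6, whereas PP2CA was highest in replicate 3 in 6 of 6. NCED3 was lowest in replicate 1 in 6 of 6 root groups and 5 of 6 shoot groups. What the replicate numbers stand for is not given in the sources used here.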
